A study of Homo sapiens with 2 samples.

Results

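Long noncoding RNAs (lncRNAs) that are widely studied in liver cancer were examined in the RNA sequencing of steatotic HepG2 cells, a human hepatocellular carcinoma line. The 10 RNAs H19, MALAT1, NEAT1, HULC, GAS5, DANCR, SNHG1, SNHG12, MIR34AHG and MIR122HG were chosen by name and found by gene identifier among the 60623 entries of the count tables, of which 15915 are lncRNAs in GENCODE release 29. Both groups were wild-type HepG2 cells loaded with 1 mM FFA (oleic and palmitic acid bound to albumin). A single library of each group was available here, at 24 h of treatment according to the sample records. The study tested this comparison with DESeq2, and whether it used further libraries is not known here. The first group received FFA with the DMSO vehicle. The second was also given 9-cis-RA, the 9-cis isomer of retinoic acid and a ligand of the RXR and RAR nuclear receptors, at 10 μM. The comparison therefore addresses the response to 9-cis-RA under FFA loading, and cells without FFA were not analysed here. Because each group is 1 library, replicates cannot be compared and neither a p-value nor an SD is given, and each difference compares these libraries rather than the conditions.

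The 10 RNAs act in different ways. MALAT1 and NEAT1 stay in the nucleus, where MALAT1 is found in speckles rich in splicing factors and NEAT1 builds the paraspeckles. GAS5, DANCR, SNHG1 and SNHG12 are spliced host genes whose introns carry small nucleolar RNAs (snoRNAs), guides for the modification of ribosomal RNA. The spliced RNAs of such host genes are often short-lived, because many are degraded by nonsense-mediated decay. H19 is an imprinted RNA of fetal liver, HULC is a cytoplasmic RNA first described in hepatocellular carcinoma, and MIR34AHG and MIR122HG are the host transcripts of miR-34a and miR-122. The second of these microRNAs is the leading microRNA of hepatocytes.

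Of the 10 RNAs, 4 hold an annotated microRNA hairpin in an exon: MIR34AHG, H19, MIR122HG and NEAT1 (MIR612). The mature 5p arms of the first 3 are shown because the study is built on miR-34a, with the seed (bases 2 to 8) in capitals. They are taken from RefSeq on GRCh38.p14. MIR34AHG holds miR-34a at chr1:9151735-9151756 on the minus strand, H19 holds miR-675 at chr11:1996800-1996822 on the minus strand and MIR122HG holds miR-122 at chr18:58451088-58451109 on the plus strand. The 3 seeds differ from one another.
hsa-miR-34a-5p: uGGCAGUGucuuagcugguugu
hsa-miR-675-5p: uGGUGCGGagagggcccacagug
hsa-miR-122-5p: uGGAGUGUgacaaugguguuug

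The starts of the snoRNA host transcripts are shown because such genes often begin with a 5' terminal oligopyrimidine (TOP) tract, a C followed by further C or T bases, which couples a transcript to the growth-dependent control of translation. The first 25 bases are printed, with the pyrimidine run that opens with C in capitals. The SNHG12 start in the RefSeq window table (GRCh38.p14, chr1:28581849-28581873, minus strand), a transcript start 1110 bases inside the RefSeq gene, opened with a run of 11, and that of SNHG1 (chr11:62855861-62855885, minus strand) with a run of 3. The DANCR start of RefSeq (chr4:52712394-52712418, plus strand) opened with G. For GAS5 the start used by 6 of its 29 GENCODE 29 transcripts, at chr1:173867965-173867989 on the minus strand of GRCh38, opened with a run of 6, while its RefSeq start (chr1:173869021-173869045) lies upstream and had none. This second GAS5 start was added after the runs were seen. The most used GENCODE 29 starts of SNHG12, SNHG1 and DANCR, at other positions than those of RefSeq, had runs of 2, 3 and 0. They were used by only 2 of 17, 9 of 25 and 1 of 5 transcripts. Other transcripts, 4 of SNHG12 and 1 of SNHG1, opened with a longer run. Among all 35116 RefSeq start windows, 4.07% opened with a run of at least 5.
SNHG12, RefSeq: CCTTTCTCCCCgccgcattcccggt
GAS5, RefSeq: agatgtgtttattttggagcctaca
GAS5, GENCODE 29: CTTTTCgaggtaggagtcgactcct
SNHG1, RefSeq: CTCatttttctactgctcgtggtaa
DANCR, RefSeq: gcccttgcccagagtcttcccggga

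The deposited values are fragment counts per gene without normalization, 60821539 with FFA and 57669670 with FFA + 9-cis-RA. The retinoid response genes CYP26A1, RARB and DHRS3 checked the treatment label: CYP26A1 had 4 counts with FFA and 709 with FFA + 9-cis-RA, and the other two were likewise higher. All 8 hepatocyte and hepatoma markers were counted in both libraries, with log2 fold changes above 0 for 3 and below 0 for 5. AFP, the fetal albumin, had 273242 and 134862 counts (-0.99), ALB 186609 and 112866 (-0.70) and GPC3 765 and 465 (-0.69), while APOA1, APOB and SERPINA1 stood between 0.036 and 0.050. TTR had only 341 and 278 counts (-0.27), and HNF4A stood at -0.14. The part of these hepatocyte genes in the results below was not tested. The leukocyte marker PTPRC and the fibroblast marker DCN had 0 counts in both libraries, and the immune marker CD68 had 5 and 15. The endothelial marker PECAM1 had 52 and 29, and ACTA2, a stellate and muscle marker, had 1186 and 773. The 10 RNAs together took 12.9% of all lncRNA counts with FFA and 13.0% with FFA + 9-cis-RA.

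Counts were divided by median-of-ratios size factors, 1 was added to each normalized count, and the log2 fold change of FFA + 9-cis-RA over FFA was computed wherever both libraries together held at least 10 counts. Of the 10 RNAs, 8 passed this minimum, as did 20431 genes and 4081 lncRNA entries in all. None of the 8 had a log2 fold change above 1, against 3.37% of all compared genes and 6.08% of compared lncRNAs. None was below -1 either, against 4.90% and 8.65%, which makes 8.28% and 14.7% past 1 in either direction. Large values were mostly those of low counts: of the 272 lncRNAs with at least 1000 counts, as 7 of the 8 RNAs have, 6 (2.21%) were past 1. The values ran from -0.46 for MIR34AHG to 0.21 for SNHG12, with a median of -0.092, beside a median of -0.020 over all compared genes and -0.094 over compared lncRNAs. Exact 95% intervals, which cover counting error only, lay above 0 for SNHG12, NEAT1 and SNHG1 and below 0 for MIR34AHG, MALAT1, DANCR and GAS5. That of GAS5 included 0 with total count scaling or lncRNA-based size factors. Intervals lay above 0 for 22.5% and below 0 for 25.7% of all compared genes, and for 8.50% and 16.4% of lncRNAs. Among the 272 lncRNAs with at least 1000 counts the shares were 21.7% and 47.4%, 69.1% in all, so an interval off 0 was common at this depth. In the same 272 entries the middle 50% of log2 fold changes ran from -0.29 to 0.11 and the central 95% from -0.92 to 0.63.

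**Figure D1:**
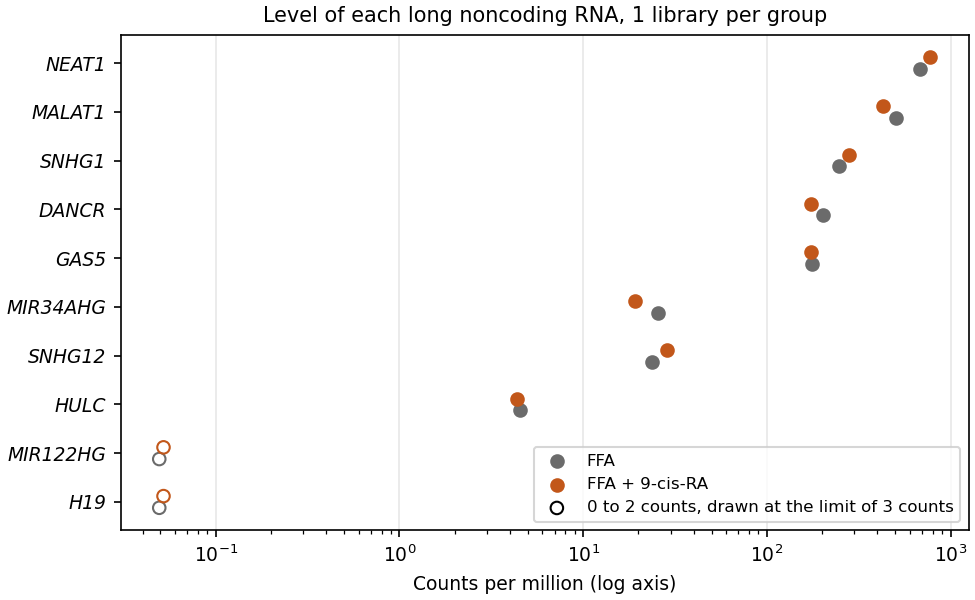
Level of the 10 RNAs in CPM (counts scaled to a common library total) in each library on a log axis, 1 point per library, grey for FFA and orange for FFA + 9-cis-RA. NEAT1 stands highest at 685 and 775 CPM, and H19 and MIR122HG, with at most 2 counts, are drawn as open points at the limit of 3 counts.

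The nuclear RNAs MALAT1 and NEAT1, neighbours on chromosome 11, differed in opposite directions. MALAT1 (65497688 to 65506516, plus strand, GRCh38, a single exon block) had 30626 counts with FFA and 24748 with FFA + 9-cis-RA (log2 fold change -0.28, 95% interval -0.30 to -0.26). NEAT1 (65422774 to 65445540, plus strand, also a single block) had 41651 and 44692 counts (log2 fold change 0.13, 95% interval 0.11 to 0.15). NEAT1 was thus the higher count of the pair in both libraries, and the gap was wider with 9-cis-RA. The ratio of NEAT1 to MALAT1 counts, which needs no scaling between libraries, was 1.36 (95% interval 1.34 to 1.38) with FFA and 1.81 (95% interval 1.78 to 1.83) with FFA + 9-cis-RA. Per length the order was the reverse, since NEAT1 is the longer gene: MALAT1 stood at 57.0 and 48.6 RPKM (CPM divided by the exon length in kb) and NEAT1 at 30.1 and 34.0.

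The NEAT1 entry holds both the short polyadenylated form and the long form that assembles paraspeckles, and its count does not separate them. MALAT1 and the long form of NEAT1 end in a genome-encoded A-rich stretch in place of a poly(A) tail, and the libraries were made from poly(A) RNA. The part of poly(A) selection in their counts was not tested. FRMD8, the coding gene upstream of NEAT1, had 2693 and 2655 counts (log2 fold change 0.0071, 95% interval -0.071 to 0.085). The opposite strand of MALAT1 was nearly silent, with 6 and 2 counts in the antisense entry.

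A list of 10 paraspeckle proteins had a median log2 fold change of 0.013, with 6 genes above 0 and 4 below, and none past 1. The highest was RBM14 with 5108 and 5770 counts (log2 fold change 0.20, 95% interval 0.15 to 0.26). The lowest was PSPC1 with 3939 and 3438 counts (-0.17, 95% interval -0.24 to -0.10). The core pair NONO and SFPQ stood at 0.041 and 0.0017.

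Among the snoRNA host genes, SNHG1 and SNHG12 were higher and DANCR and GAS5 lower in the FFA + 9-cis-RA library. SNHG12 (chromosome 1, 28578538 to 28583132, minus strand) had 1451 and 1649 counts (log2 fold change 0.21, 95% interval 0.11 to 0.31). SNHG1 (chromosome 11, 62851984 to 62855953, minus strand) had 15100 and 16144 counts (log2 fold change 0.12, 95% interval 0.092 to 0.16). DANCR (chromosome 4, 52712404 to 52720351, plus strand) had 12369 and 10046 counts (log2 fold change -0.27, 95% interval -0.31 to -0.23). GAS5 (chromosome 1, 173858559 to 173868882, minus strand) had 10773 and 10034 counts (log2 fold change -0.075, 95% interval -0.11 to -0.036). With total count scaling the GAS5 value was -0.026 (95% interval -0.065 to 0.014), and with size factors from lncRNAs -0.037 (95% interval -0.076 to 0.0023). The direction thus differed within the group, whose 4 genes together took 4.51% of lncRNA counts in each library.

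SNHG1 starts 149 bases from SLC3A2, a coding gene on the opposite strand whose product is the heavy chain of amino acid transporters. SLC3A2 had 26217 and 31650 counts (log2 fold change 0.30, 95% interval 0.28 to 0.32), in the same direction as SNHG1. WDR74, on the other side of SNHG1, had 3672 and 2987 counts (log2 fold change -0.27, 95% interval -0.34 to -0.20). ZBTB37, which lies opposite to GAS5, had 702 and 715 counts with an interval that included 0 (-0.098 to 0.21). TRNAU1AP, which overlaps SNHG12 on the opposite strand, had 528 and 442 counts (log2 fold change -0.23, 95% interval -0.41 to -0.044).

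**Figure D2:**
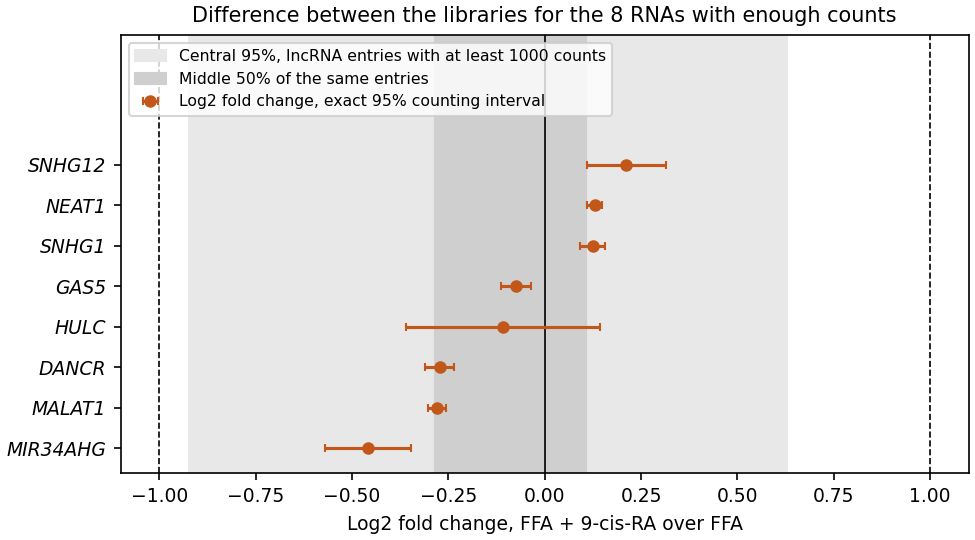
Log2 fold change of the 8 compared RNAs, FFA + 9-cis-RA over FFA, with exact 95% counting intervals as bars. Shaded bands show the middle 50% and central 95% of 272 well-counted lncRNA entries and dashed lines mark -1 and 1. All 8 points lie inside the central band, and the bar of HULC crosses 0.

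Another 24 noncoding snoRNA host genes passed the minimum, out of 27 listed. Their median log2 fold change was -0.10, with 9 above 0 and 15 below. The counting interval lay above 0 for 6 and below 0 for 13 of the 24. The shares were 8.50% and 16.4% of compared lncRNAs, and 21.7% and 47.4% of those with at least 1000 counts. Some of the 24 hosts have fewer counts than that. None of the 24 was past 1, beside 14.7% of compared lncRNAs. Among those with at least 100 counts, the highest were SNHG19 (1023 and 1243 counts, 0.31), SNHG7 (3950 and 4622 counts, 0.25) and SNHG21 (173 and 197 counts, 0.21, interval including 0). The lowest were SNHG25 (139 and 103 counts, -0.40), CCDC18-AS1 (293 and 239 counts, -0.27) and SNHG14 (3478 and 2890 counts, -0.24). Other entries cover 72.9% of the exon bases of SNHG21 and 48.6% of those of SNHG25 on the same strand, where fragments are not counted. The 4 hosts described above therefore stood within the range of the other hosts. Nonsense-mediated decay factors, 14 in number, had a median of 0.068, with 9 above 0 and 5 below. The interval included 0 for 6 of the 14. Over all compared genes, 52.3% were below 0. The decay factors ran from MAGOH at -0.15 to SMG9 at 0.26. Translation factors with TOP mRNAs had a median of -0.044 over 13 compared genes, 4 above 0 and 9 below, and the median was 0.0051 with total count scaling.

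MIR34AHG, the host of miR-34a, had the lowest value of the 8. It lies on chromosome 1 from 9148011 to 9198906 on the minus strand and had 1556 counts with FFA and 1111 with FFA + 9-cis-RA. The log2 fold change was -0.46 (95% interval -0.57 to -0.35) and lay below the middle 50% of lncRNAs with at least 1000 counts. LNCTAM34A, transcribed against it on the other strand, had 62 and 52 counts with an interval that included 0 (-0.79 to 0.33). The flanking coding genes lay on the other side of 0, GPR157 at 0.16 (3414 and 3736 counts) and H6PD at 0.36 (6089 and 7645 counts). The MIR34A hairpin entry itself had 0 counts in both libraries. It lies wholly inside an exon of the host, where fragments overlap both entries and are not counted. The libraries were also made from poly(A) RNA, so for both reasons the level of mature miR-34a cannot be read from these counts.

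MiR-34a targets named by the study were set beside MIR34AHG. RXRA, the gene of a receptor for 9-cis-RA, had 8291 and 5978 counts (log2 fold change -0.44, 95% interval -0.49 to -0.40), on the same side as MIR34AHG. The deacetylase gene SIRT1 had 1996 and 2327 counts (0.25), the fatty acid sensor gene PPARA had 2403 and 2613 (0.15) and the forkhead factor gene FOXO3 had 1269 and 1710 (0.46), all on the other side. Among all genes with at least 1000 counts, 69.1% had an interval off 0. A link of these values to miR-34a was not tested.

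MIR122HG, the host of miR-122 (chromosome 18, 58445788 to 58453766, plus strand), had 0 counts with FFA and 2 with FFA + 9-cis-RA. H19 (chromosome 11, 1995176 to 2001470, minus strand) had 0 and 1. The limit at 0 counts is taken as 3 counts, which is 0.0493 CPM with FFA and 0.0520 CPM with 9-cis-RA added, so no difference could be detected for either at this depth. The hairpin entries of miR-122 and miR-675 had 0 counts as well. These low counts stand beside the well-counted hepatocyte regulator HNF4A, with 24238 and 21509 counts. IGF2, the imprinted growth factor gene that shares an enhancer with H19, had 957 and 1166 counts (log2 fold change 0.31, 95% interval 0.19 to 0.44). Other entries cover 70.7% of the exon bases of IGF2 on its strand, and fragments there are not counted.

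Other microRNA host genes, 13 of 20 with enough counts, had a median of -0.31, with 4 above 0 and 9 below. The interval included 0 for 5 of the 13. Of the 4081 compared lncRNAs, 2309 were below 0. A single member, MIR193BHG, was past 1, beside 14.7% of compared lncRNAs. It had 162 and 66 counts and a log2 fold change of -1.26 (95% interval -1.70 to -0.85). MIRLET7BHG had 218 and 115 counts (-0.89) and MIR23AHG had 89 and 51 (-0.76). The highest was MIR22HG with 771 and 1012 counts (0.42, 95% interval 0.28 to 0.56), followed by MIR194-2HG at 0.34 and MIR17HG at 0.23, the last with an interval that included 0.

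**Figure D3:**
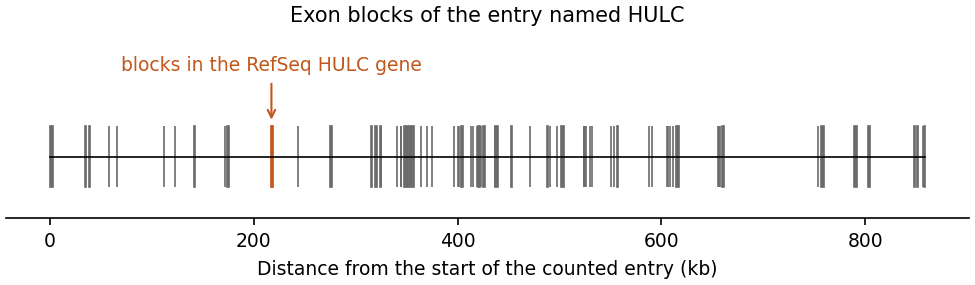
Exon blocks of the entry named HULC along the 859 kb it spans, as distance in kb from its start, with block edges drawn at a minimum line width. The 2 orange blocks lie within the RefSeq HULC gene, and the grey blocks lie outside it.

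The entry named HULC had 277 counts with FFA and 252 with FFA + 9-cis-RA (log2 fold change -0.11, 95% interval -0.36 to 0.14, which included 0). This entry is not the compact HULC gene alone. It spans chromosome 6 from 8435568 to 9294133 on the plus strand with 78 exon blocks and 48395 exon bases, while the RefSeq HULC gene (GRCh38.p14) runs from 8652269 to 8653856. Only 2 blocks with 1180 bases, 2.44% of the exon bases of the entry, lie inside the RefSeq gene. Of these 1180 bases, 20.3% are shared with another entry on the same strand, where fragments are not counted. How many of the counts come from HULC itself cannot be told from the table, and the per-length level of 0.0941 and 0.0903 RPKM is that of the whole entry. SLC35B3, whose start faces the start of the entry, had 1056 and 937 counts (-0.14, 95% interval -0.27 to -0.017).

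Per length, DANCR was the highest of the 10 RNAs in both libraries, at 87.4 and 74.8 RPKM, and ranked 3 and 5 among compared lncRNA entries. SNHG1 followed at 62.5 and 70.5, then MALAT1. GAS5 stood at 36.6 and 35.9 and NEAT1 at 30.1 and 34.0. SNHG12 stood at 5.59 and 6.70 and MIR34AHG at 2.94 and 2.21. The HULC entry came next, and the order down to it was the same in both libraries, with MIR122HG and H19 at 0 to 2 counts below. In each library the counting intervals of neighbours in this order, down to HULC, did not overlap, as for GAS5 (35.2 to 36.6) and NEAT1 (33.7 to 34.4) with 9-cis-RA, but the spread between cultures is unknown. These lengths include bases shared with other entries, where fragments are not counted. Per countable base, with 9-cis-RA, DANCR stood at 84.2 RPKM (95% interval 82.6 to 85.9) and SNHG1 at 83.4 (95% interval 82.1 to 84.7), so their intervals overlapped, while with FFA they stood apart at 98.3 and 73.9.

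The overlaps with other entries differ widely between the 10 RNAs and lower some counts. SNHG1 shares 15.4% of its exon bases with 7 snoRNA entries, since its single exon block takes in the introns, and all 7 snoRNA entries had 0 counts. DANCR shares 11.2% and SNHG12 9.35%, H19, NEAT1, MALAT1, MIR122HG, MIR34AHG and HULC between 1.13% and 2.52%, and GAS5 none. In all, 23 entries share exon bases with 1 of the 10 RNAs on the same strand, and 22 of them had 0 counts in both libraries. Of the snoRNAs outside exons, SNORD99 in SNHG12 had 58 and 93 counts (log2 fold change 0.70, 95% interval 0.22 to 1.21). SNORA26 in DANCR had 50 and 44 with an interval that included 0 (-0.78 to 0.46). In these poly(A) libraries, fragments of the snoRNAs cannot be told apart from those of the unspliced host RNA.

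**Figure D4:**
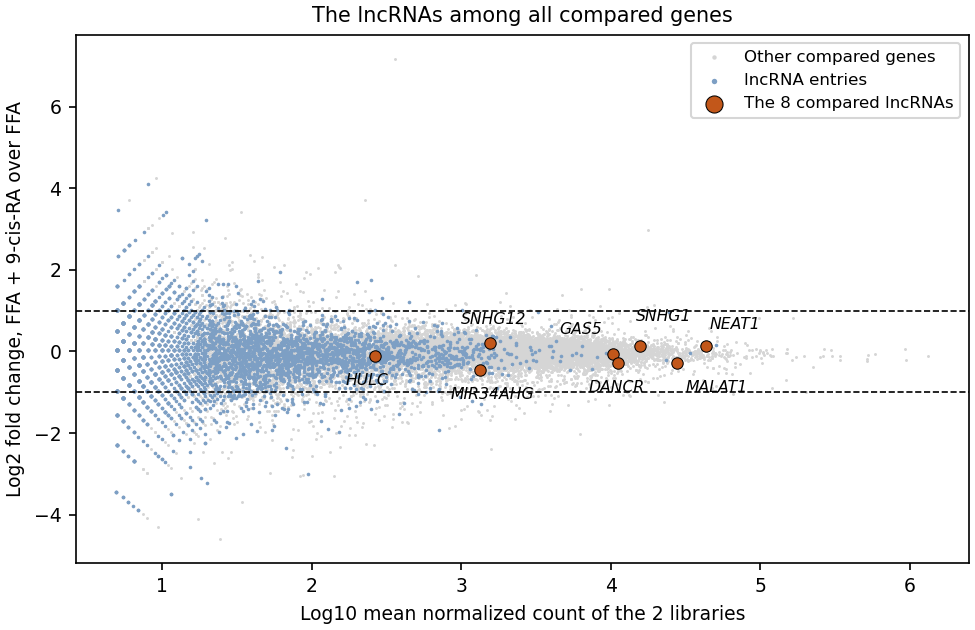
Log2 fold change, FFA + 9-cis-RA over FFA, against the log10 mean normalized count for the 20431 compared genes, with lncRNA entries in blue and the 8 compared RNAs in orange. Dashed lines mark -1 and 1, and no orange point lies past them.

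Of 30 other lncRNAs studied in liver cancer, 29 were found and 17 had enough counts, with a median of -0.086, 6 above 0 and 11 below. Of these 17, only LINC00261, a lncRNA beside the endoderm factor gene FOXA2, was past 1, against 14.7% of compared lncRNAs. LINC00261 had 1673 and 711 counts and a log2 fold change of -1.21 (95% interval -1.34 to -1.08). PVT1, the neighbour of MYC, had 1454 and 945 counts (-0.59, 95% interval -0.71 to -0.47), and CRNDE had 3262 and 2421 (-0.40, 95% interval -0.48 to -0.33). Among those with at least 100 counts, the highest were UCA1 with 246 and 350 counts (0.53, 95% interval 0.30 to 0.78) and HOXA-AS2 with 1040 and 1465 (0.52, 95% interval 0.41 to 0.64). CASC2 followed with 71 and 87 counts (0.32), and its interval included 0. The 8 compared RNAs spanned a narrower range of log2 fold changes than this list. The list holds 17 compared genes, some with low counts, and a range widens with more genes and with fewer counts.

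**Figure D5:**
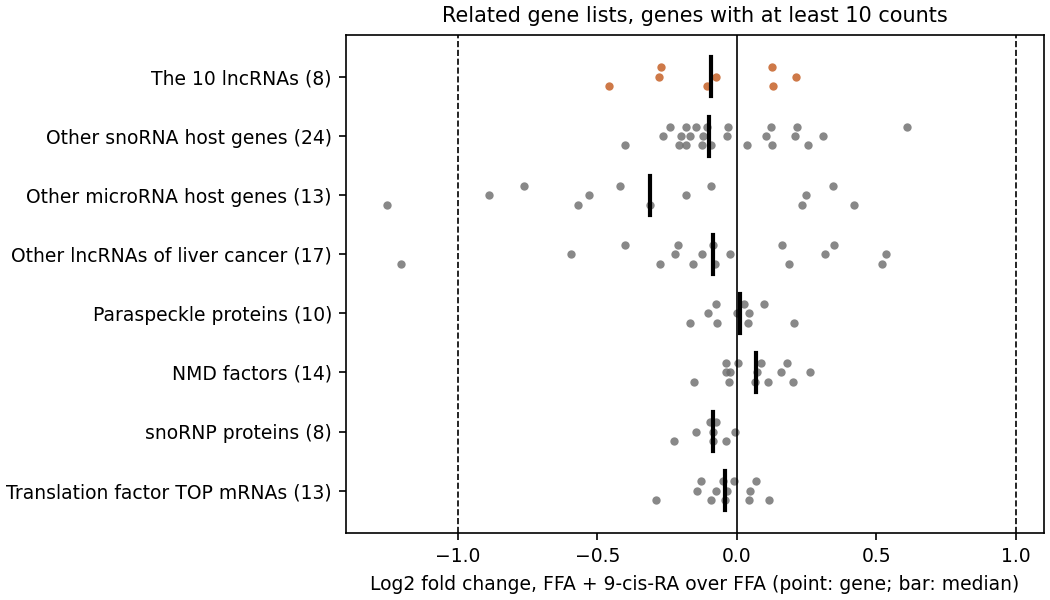
Log2 fold change, FFA + 9-cis-RA over FFA, of each gene with at least 10 counts in 8 rows, the studied lncRNAs in orange and 7 related lists in grey, with the median as a bar and the number of genes in brackets. Other microRNA host genes have the lowest median (-0.31), and dashed lines mark -1 and 1.

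The proteins that act with H19 and HULC were compared in a list of 9 genes with their imprinted neighbours, 8 of which had enough counts. Their median was -0.13, with 2 above 0 and 6 below, beside 52.3% of all compared genes below 0. With total count scaling 3 were above 0 and 5 below. The 2 above 0 were IGF2 (0.31) and ELAVL1 (0.029, 95% interval -0.015 to 0.073). CREB1 stood at -0.017, and its interval included 0 as well (-0.096 to 0.062). LIN28B, the blocker of let-7 maturation, had 5456 and 3260 counts (log2 fold change -0.72, 95% interval -0.78 to -0.65). The RNA-binding protein genes IGF2BP1, IGF2BP2 and IGF2BP3 stood at -0.058, -0.22 and -0.21. The imprinted potassium channel gene KCNQ1 had 957 and 721 counts (-0.38, 95% interval -0.52 to -0.24).

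The hexamer AGGTCA, the core of nuclear receptor response elements, was looked for on both strands in the RefSeq windows from 250 bases before to 50 bases after each start. The table gave 9 windows for 8 of the 10 RNAs, 2 of them for MALAT1. The windows of GAS5, at position -79, and MIR122HG, at -248, held it, which is 2 of the 9 windows, beside 13.8% of all windows. A match is a description of the letters and not of a bound site.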

How the data were processed

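The 2 poly(A) RNA libraries of FFA-loaded HepG2 cells, 1 without and 1 with 9-cis-RA, were used, which the sample records place in a single batch. The deposited values are counts of fragments by gene, not normalized, from featureCounts version 2.0.1, which required both mates to map and read the strand as reversed (setting 2). Multi-mapping fragments, and those shared by overlapping entries of a strand, went uncounted. The sample records name GRCh38 and DESeq2. The aligner and annotation release are not given in the sources used here. The members and gene lists were chosen with earlier results of these data known.

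Names came from a gene identifier table, which matched 60295 of 60623 entries, and gene types from GENCODE 29. LINC-PINT, a symbol shared by several entries, and CCAT1, which matched none, were left out. Size factors came from DESeq2 version 1.42.0 and TMM factors from edgeR version 4.0.16, in R version 4.3.3. Log2 fold changes used a pseudocount of 1, which understates the change of low counts, a minimum of 10 counts over both libraries and a threshold of 1. Exact intervals (Clopper-Pearson for shares and ratios, Poisson for levels) at 95% and the floor of 3 counts cover counting error only. They used Python 3.11.15 with scipy 1.17.1. Loess trends (span 0.3) used statsmodels 0.14.6, and plots used matplotlib 3.10.9. In each list, at most the 3 highest and 3 lowest genes with at least 100 counts were to be named. Genes named beyond these (NONO, SFPQ, HNF4A, TTR, IGF2BP1, IGF2BP3) were chosen after their values were seen. The cell type markers PTPRC, CD68, DCN and PECAM1, each with fewer than 100 counts, were also named outside this rule. Simulated counts served as a test of the log2 fold changes and their counting intervals only. Some neighbouring and listed genes are not reported here.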

Additional observations from a re-analysis of the deposited data

How the results depend on the processing

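Results were recomputed with TMM, total count and lncRNA-based scaling, pseudocounts of 0.1 and 5, no count minimum or one of 50, and trends on expression or length removed. All 8 compared RNAs kept the sign of their log2 fold change in all 72 values, of which 14 lay outside the counting interval. NEAT1 ran from 0.070 with the length trend removed to 0.18 with total count scaling, and DANCR from -0.27 to -0.21. The counting interval of GAS5 included 0 with total count scaling (value -0.026) and lncRNA-based size factors (-0.037). Without a count minimum, 2 RNAs passed 1 (H19 and MIR122HG, with at most 2 counts) and the median was 0.025. No other alternative, including the whole interval past 1, put any of the 8 compared RNAs past 1 in either direction. H19 and MIR122HG were not compared in those alternatives. Leaving out the HULC entry, chosen after seeing the data, gave a median of -0.075. Levels per countable exon base, also chosen after seeing the data, no longer separated DANCR from SNHG1 with 9-cis-RA. Over all genes, 689 were above 1 and 1002 below -1, against 341 and 594 with a pseudocount of 5, 153 and 361 with a minimum of 50, and 3771 and 2493 without a minimum. With total count scaling, 6 of 8 snoRNP proteins, 13 of 24 other snoRNA hosts and 1 of 14 decay factors were below 0. No paired analysis was possible because each group has 1 library. For the same reason no library could be left out. Depth limits H19 and MIR122HG, and the overlap of entries limits HULC and, together with poly(A) selection, the hairpins.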

Other observations

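All 8 listed box C/D and H/ACA snoRNP protein genes had log2 fold changes below 0, with a median of -0.086 and 6 counting intervals below 0. Over all compared genes 52.3% of values and 25.7% of intervals lay below 0, and among genes with at least 1000 counts 48.7% and 34.7%. Total count scaling put 2 of the 8 above 0. FBL, which encodes the methyltransferase fibrillarin, had 9943 and 8338 counts (log2 fold change -0.23, 95% interval -0.27 to -0.18). NOP56, another box C/D protein gene, had 43250 and 39640 counts (-0.098, 95% interval -0.12 to -0.078). GAR1, a box H/ACA protein gene, had 3023 and 2678 counts (-0.15, 95% interval -0.22 to -0.072). With 1 library per group, a difference between the cultures cannot be told apart from the treatment.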
